A study of Homo sapiens with 24 samples.

Results

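The plasminogen system and the protease-activated receptors were followed through the RNA of 9 genes: PLAU, PLAT, PLAUR, SERPINE2, SERPINB2, F3, F2R, F2RL1 and F2RL2. They were selected by gene symbol, as the 9 rows of those names among the 58735 gene IDs of the deposited count table, and all 9 were among the 15956 genes with enough reads to be tested. The choice was made with earlier results of these libraries known and the measure behind it is not recorded, so the counts of members called below are descriptions and nothing is read from their excess over all genes. The cells were SAS, an established oral squamous cell carcinoma line, carrying either wild-type NRF2 (WT) or NRF2 with the E79Q substitution (E79Q). NRF2, the product of NFE2L2, is a transcription factor of the oxidative stress response that is normally held down by KEAP1. How E79Q was introduced, and whether each genotype was 1 clone, is not given in the sources used here. For every genotype comparison, E79Q and any other difference between the lines cannot be told apart. E79Q effect and genotype effect below mean the difference between the lines.

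Each genotype was sequenced in 4 states, with 3 libraries in each of the 8 groups and 24 in all. The states were untreated (labelled as control), CB-839, radiation, and radiation plus CB-839, which is called doubly treated here. CB-839, an inhibitor of glutaminase, was used at 0.1 µM for 24 hours before a single X-ray dose of 4 Gy, and RNA was taken 24 hours after irradiation. Cells without the drug are recorded with the same 24 hours of pretreatment at 0 µM, so untreated means without drug and radiation. All groups shared the cell line and a medium with 10% fetal calf serum. The labels do not say that the 3 libraries of a group came from separate cultures, so p-values measure the spread between libraries, which may be technical. The series' text speaks of the 12 irradiated samples alone, while the labels hold 12 unirradiated ones as well. No RNA collection time is held for the unirradiated libraries in the sources used here. Whether these were grown, harvested and sequenced beside the irradiated ones is not stated. For every radiation comparison any such difference and the radiation cannot be told apart.

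Plasminogen is a circulating zymogen that urokinase (PLAU) and tissue plasminogen activator (PLAT) cut into plasmin, a protease that dissolves fibrin and activates other matrix-degrading enzymes. Urokinase works while bound to its membrane-anchored receptor PLAUR, and serpins such as SERPINE2 and SERPINB2 trap the activators. Tissue factor (F3) starts the clotting cascade, whose product thrombin cleaves protease-activated receptors on the cell surface. The receptors of that family in the list are PAR1 (F2R), PAR2 (F2RL1, which trypsin-like proteases cleave) and PAR3 (F2RL2). Squamous carcinoma cells are known to make urokinase, its receptor and tissue factor.

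The 24 libraries held between 14285084 and 23640197 counts. Replicates correlated at a Pearson's r of 0.985 to 0.992 in log2 CPM (counts scaled by library total and TMM factors), and libraries of unlike groups at 0.969 to 0.989. No pair of replicates agreed within sampling noise, with a chi-square per gene of 2.25 to 32.3 over the pairs. The sequence change itself cannot be seen in gene counts; of known NRF2 targets, AKR1C1 averaged 7.83 CPM in untreated WT and 58.1 in untreated E79Q cells, and NQO1 354 and 587. The 9 epithelial markers (keratins, TP63, EPCAM, CDH1 and DSP) summed to 6269.7 to 9283 CPM in WT and 3844 to 6020 in E79Q libraries. KRT8 and KRT18 had the highest levels of these in untreated WT cells, at 4243 and 1924 CPM. All 9 markers were lower in untreated E79Q cells, and what part this has in the genotype differences was not tested. Leukocyte, endothelial and platelet markers, which stand for other cells that carry this system, summed to at most 4.13, 4.96 and 1.14 CPM, with 6 of 7, 4 of 5 and 4 of 4 of them under 1 CPM in every library. The 6 fibroblast markers summed to 4.06 to 8.51 CPM except in library 2 of untreated E79Q cells, at 45.5. A library's deviation from its group correlated with gene GC content at up to 0.479 in library 2 and down to -0.380 in library 1 of doubly treated E79Q cells. The 4 libraries with the highest such correlation, called those of highest GC trend below and named with the processing, were left out in 1 alternative.

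Per kilobase of deposited gene length, untreated WT cells held the 9 transcripts at very unequal levels. For PLAU, SERPINB2, PLAUR, F2R and F2RL2 this length equals all annotated exon bases of the gene. It can exceed the length of the transcript made, and the level per kilobase is then too low. Transcript lengths were not measured here, so ranks and ratios between genes hold for the deposited lengths only, and close ranks are uncertain. F3 stood highest, at 501 ± 8.26 CPM per kilobase (mean ± SD, n = 3 here and below), which was the fourth highest of all genes of the lists used here. SERPINB2 followed at 135 ± 7.31, then F2RL1 at 56.4 ± 0.304. F2R at 30.5 ± 1.48 and PLAU at 28.0 ± 1.74 overlapped between libraries. PLAUR lay at 4.66 ± 0.561, F2RL2 at 1.71 ± 0.133, SERPINE2 at 1.41 ± 0.139 and PLAT at 1.40 ± 0.159, and the PLAT libraries overlapped those of both F2RL2 and SERPINE2. The substrate of the activators was not seen: PLG had 0 counts in all 24 libraries, and so did F2RL3 (PAR4, another thrombin receptor). A count of 0 allows up to 3 counts, which is 0.127 to 0.210 CPM over these libraries and covers counting error only.

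**Figure D1:**
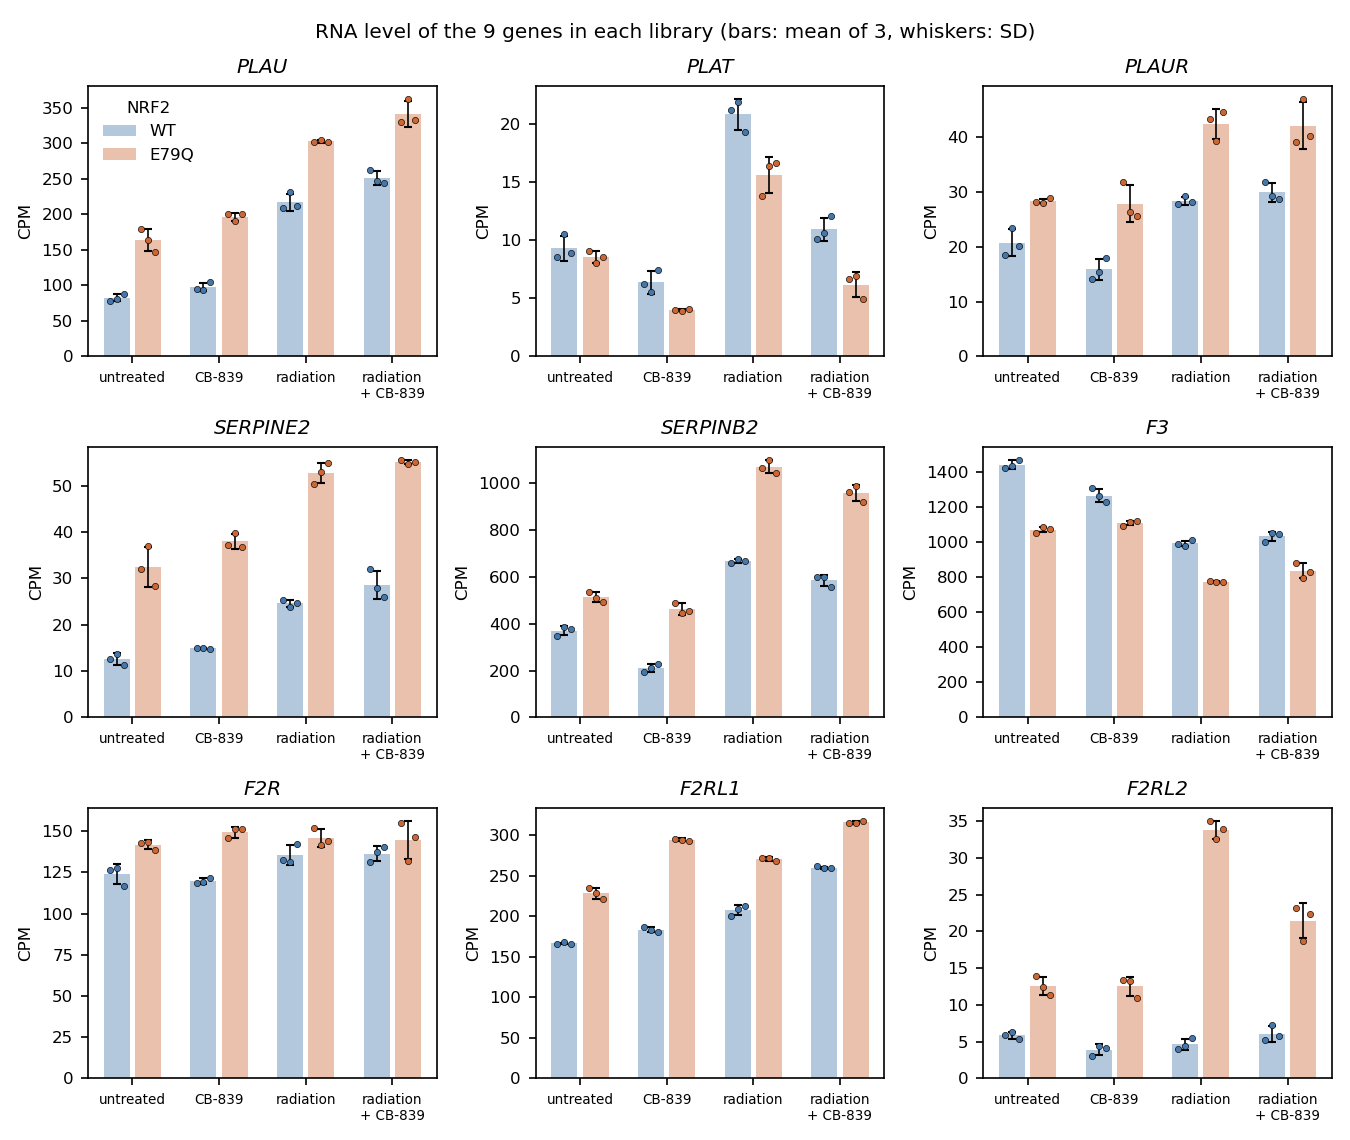
RNA level (CPM, linear axis from 0) of the 9 genes by treatment, with WT in blue and E79Q in orange; bars are means of 3 libraries, whiskers SD and points single libraries. PLAU climbs from 82.6 CPM in untreated WT to 342 in doubly treated E79Q cells, F3 is lowest in irradiated E79Q cells, and F2RL2 stands at 33.9 CPM in irradiated E79Q against 4.62 in irradiated WT cells.

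Because NRF2 binds antioxidant response elements and most members differed with genotype and radiation, the 250 bases before each RefSeq start (GRCh38.p14) were searched for TGACNNNGC, the core of that element, and for TGACTCA, the AP-1 site, on both strands; the motifs share their first letters TGAC and were counted separately. RefSeq entries were at hand for 7 of the 9 genes, F2R and PLAT being without one. TGACTCA was found before the starts of F3, PLAUR and F2RL2, and stood in 4.20% of 35116 promoter entries. TGACNNNGC was found before 1 of the 2 PLAU starts and, at a pair of places, before 1 of the 2 SERPINE2 starts, and stood in 10.9% of entries. Exons of the GENCODE 29 annotation overlapped the matched 250-base stretches of F3, PLAUR, F2RL2 and PLAU, but not that of SERPINE2. Those of PLAU, PLAUR and SERPINE2 lie inside the gene positions given below. The last base of the F2RL2 match is the first base of that gene as positioned below. Before the start therefore means before the RefSeq start used. The sites are shown 5′ to 3′ on the gene's strand, with the match in capitals, read on the opposite strand in each case. The AP-1 matches, at 210 to 204, 186 to 180 and 37 to 31 bases before the start, were these.
F3, chr1:94541953-94541979, minus strand: atcactggggTGAGTCAtcccttgcag
PLAUR, chr19:43670339-43670365, minus strand: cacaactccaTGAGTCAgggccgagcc
F2RL2, chr5:76623424-76623450, minus strand: aggcttggccTGAGTCAtgcttactga
The element matches, at 168 to 160 bases before the PLAU start and at 171 to 163 and 94 to 86 before the SERPINE2 start, were these.
PLAU, chr10:73910432-73910460, plus strand: tccttatcaaGCCCTGTCAaaaacggact
SERPINE2, chr2:224031631-224031659, minus strand: attggctgatGCTAAGTCAcatggtcaca
SERPINE2, chr2:224031554-224031582, minus strand: attggctgatGCTAGGTCAcgtggtcaca
F2RL2, the gene of widest range among the 9, is shown with more of its upstream sequence, ending at the same AP-1 match.
F2RL2, chr5:76623434-76623653, minus strand: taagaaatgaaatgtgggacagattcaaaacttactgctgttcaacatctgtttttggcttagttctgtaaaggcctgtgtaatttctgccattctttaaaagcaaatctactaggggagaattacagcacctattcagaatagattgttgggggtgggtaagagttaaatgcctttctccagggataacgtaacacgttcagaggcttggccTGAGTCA
A match describes the letters and is neither a bound site nor a cause, and the genes without a match are not thereby shown to lack one elsewhere.

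PLAU (ENSG00000122861, chromosome 10 at 73909177 to 73917497, plus strand, GRCh38) encodes urokinase, and is 1 of the genes shown above with a TGACNNNGC match. In bulk RNA, fewer cells that make a transcript and less of it per cell cannot be told apart. PLAU levels were 78.3, 81.3 and 88.3 CPM in the 3 untreated WT libraries and 179.5, 164 and 148 in untreated E79Q. Under CB-839 they were 95.3, 93.7 and 104 in WT and 200.02, 190.0 and 200.1 in E79Q libraries. After radiation they were 209, 231 and 211 in WT and 301, 306 and 302 in E79Q, and in doubly treated cells 263, 247 and 244 in WT and 329.8, 363 and 333 in E79Q. Within every treatment all E79Q libraries were above all WT libraries, and within every genotype and drug state all irradiated libraries were above all unirradiated ones. The E79Q against WT log2 fold change came to 0.99 (SE 0.065, adjusted p = 6.38e-12) in untreated cells and 1.01 (SE 0.065, adjusted p = 4.47e-12) under CB-839, both by edgeR's quasi-likelihood test with Benjamini-Hochberg adjustment over all genes, which gave every adjusted p below unless another tool is named. In irradiated cells it was 0.48 (SE 0.063, adjusted p = 3.14e-06), and in doubly treated cells 0.45 (SE 0.063, adjusted p = 1.62e-05).

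PLAU rose after radiation by a log2 fold change of 1.40 (SE 0.066) in WT and 0.89 (SE 0.064) in E79Q cells, and the difference of these effects, E79Q minus WT, was -0.51 (SE 0.090, adjusted p = 0.00221). Under CB-839 the radiation effects were 1.36 (SE 0.065) and 0.80 (SE 0.063), with a difference of -0.56 (SE 0.090, adjusted p = 6.99e-04). So the transcript rose by a smaller factor in E79Q cells, from a higher start, and still ended higher. The difference is one of factors and not of CPM added, which was of similar size. Mean CPM went from 82.6 to 217 in WT and from 164 to 303 in E79Q cells. Under CB-839 it went from 97.7 to 251 and from 197 to 342. CB-839 raised PLAU by a small amount in all 4 settings, from 0.17 in irradiated E79Q (adjusted p = 0.0410) to 0.26 in unirradiated E79Q cells (adjusted p = 0.00374). The drug call in unirradiated WT cells was lost without library 1 of untreated WT cells or without library 3 of CB-839-treated WT cells (adjusted p = 0.0783 to 0.0794). In irradiated WT cells it was lost with upper-quartile factors, without library 1 or 3 of irradiated WT cells or without library 1, 2 or 3 of doubly treated WT cells (adjusted p = 0.0509 to 0.172). In irradiated E79Q cells it was lost with only the groups compared, without library 1, 2 or 3 of irradiated E79Q cells or without library 2 of doubly treated E79Q cells (adjusted p = 0.0819 to 0.151).

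PLAT (ENSG00000104368, chromosome 8 at 42175233 to 42207724, minus strand) encodes the other activator, best known from vessel walls. Its levels were 8.52, 10.5 and 8.85 CPM in untreated WT and 9.03, 8.05 and 8.55 in untreated E79Q libraries. Under CB-839 they were 6.21, 5.49 and 7.43 in WT and 4.00, 3.88 and 4.08 in E79Q. After radiation they were 21.2, 21.9 and 19.3 in WT and 13.8, 16.3 and 16.6 in E79Q, and in doubly treated cells 10.1, 10.6 and 12.0 in WT and 6.62, 6.89 and 4.92 in E79Q. The genotypes overlapped in untreated cells and did not overlap in the other 3 states, where E79Q was lower. Radiation raised PLAT by a log2 change of 1.16 (SE 0.12, adjusted p = 3.14e-08) in WT and 0.86 (SE 0.12, adjusted p = 5.85e-06) in E79Q cells. CB-839 lowered it in all 4 settings, with log2 fold changes of -0.54 (SE 0.13) in WT, -1.10 (SE 0.15) in E79Q, -0.93 (SE 0.12) in irradiated WT and -1.34 (SE 0.12) in irradiated E79Q cells, with adjusted p from 1.10e-08 to 0.00557.

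The E79Q effect on PLAT was -0.68 (SE 0.15, adjusted p = 0.00225) under CB-839, -0.42 (SE 0.11, adjusted p = 0.0124) after radiation and -0.83 (SE 0.13, adjusted p = 6.54e-05) with both, against -0.12 (SE 0.13, adjusted p = 0.590) without treatment. The call after radiation was lost without library 1 or 2 of irradiated WT cells or without library 1 of irradiated E79Q cells (adjusted p = 0.0510 to 0.114), and the drug call in WT cells was lost without library 2 of CB-839-treated WT cells (adjusted p = 0.0529). The difference between genotypes in the CB-839 effect, -0.56 (SE 0.20), did not pass (adjusted p = 0.0599); it passed with RLE size factors, with DESeq2, without library 2 of untreated WT cells or without library 2 of CB-839-treated WT cells (adjusted p = 0.0336 to 0.0482). PLAT rests on 58 to 431 counts per library. Its direction under CB-839 was opposite to that of PLAU, so the ratio of the activators moved. Per kilobase, PLAU exceeded PLAT 20.1 ± 2.53 times in untreated WT, 43.0 ± 3.76 times in untreated E79Q, 34.7 ± 3.41 times in CB-839-treated WT and 111 ± 1.31 times in CB-839-treated E79Q cells. After radiation the ratio was 23.5 ± 1.19 in WT and 43.97 ± 4.46 in E79Q cells, and with both treatments 52.1 ± 6.45 and 127 ± 21.5. The size of these ratios depends on the deposited gene lengths, while their fold changes between groups do not.

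PLAUR (ENSG00000011422, chromosome 19 at 43646095 to 43670547, minus strand) encodes the urokinase receptor. Its mean level was 20.8 ± 2.50 CPM in untreated WT and 28.4 ± 0.432 in untreated E79Q cells, 15.9 ± 1.91 and 27.9 ± 3.42 under CB-839, 28.4 ± 0.775 and 42.5 ± 2.70 after radiation, and 30.0 ± 1.70 and 42.1 ± 4.30 with both. The 3 libraries of each E79Q group lay above those of the matching WT group, with log2 fold changes of 0.45 to 0.81 and adjusted p of 1.12e-06 to 0.00140. PLAUR also rose after radiation in all 4 settings, most under CB-839 in WT cells, at 0.92 (SE 0.10, adjusted p = 1.21e-07). It fell under CB-839 in unirradiated WT cells, at -0.39 (SE 0.10, adjusted p = 0.0106), and that call was lost without library 2 of untreated WT cells or without library 1 or 2 of CB-839-treated WT cells (adjusted p = 0.0518 to 0.0928). The difference between genotypes in this CB-839 effect, 0.36 (SE 0.14, adjusted p = 0.0931), was not called, but passed without the 4 libraries of highest GC trend or without library 3 of CB-839-treated WT cells (adjusted p = 0.0135 to 0.0402). In doubly treated cells the genotype call was lost with only the groups compared (adjusted p = 0.0579).

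SERPINE2 (ENSG00000135919, chromosome 2 at 223975112 to 224039319, minus strand) encodes protease nexin 1, which traps thrombin, urokinase and plasmin. Its level was 12.5 ± 1.24 CPM in untreated WT and 32.4 ± 4.29 in untreated E79Q cells, 14.9 ± 0.118 and 38.0 ± 1.62 under CB-839, 24.6 ± 0.753 and 52.7 ± 2.23 after radiation, and 28.6 ± 3.04 and 55.2 ± 0.398 with both. E79Q libraries lay above WT libraries in every treatment. The genotype log2 fold change was 1.37 (SE 0.092, adjusted p = 9.06e-12) in untreated cells and 0.94 (SE 0.082, adjusted p = 4.61e-09) in doubly treated cells, the highest and the lowest of the 4. Radiation raised SERPINE2 by 0.54 to 0.97 in the 4 settings (adjusted p = 1.11e-08 to 2.32e-05). None of the 4 CB-839 comparisons passed, with log2 fold changes of 0.066 to 0.25 and adjusted p of 0.0543 to 0.585. The library of untreated E79Q cells with the high fibroblast markers was also the highest of its group in SERPINE2, at 36.9 CPM against 32.0 and 28.4. Without it the genotype value in untreated cells was 1.27 (adjusted p = 1.26e-10) and the CB-839 effect in E79Q cells was 0.33 (adjusted p = 0.00874), and with only the groups compared it was 0.22 (adjusted p = 0.0469).

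SERPINB2 (ENSG00000197632, chromosome 18 at 63871692 to 63903890, plus strand) encodes plasminogen activator inhibitor 2, a serpin that stays largely inside epithelial cells. Its levels were 348, 387 and 377 CPM in untreated WT and 536, 511 and 493 in untreated E79Q libraries. Under CB-839 they were 193, 211 and 229.8 in WT and 490.5, 444 and 454 in E79Q. After radiation they were 662, 676 and 666 in WT and 1064, 1101 and 1046 in E79Q, and in doubly treated cells 599, 599.9 and 558 in WT and 964, 988 and 921 in E79Q. No WT library reached any E79Q library of the same treatment, and no unirradiated library reached any irradiated one of the same genotype and drug state. The widest genotype difference was under CB-839, at 1.13 (SE 0.057, adjusted p = 2.68e-14), and the narrowest in untreated cells, at 0.47 (SE 0.056, adjusted p = 3.88e-07).

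The drug moved SERPINB2 unequally in the genotypes. CB-839 lowered it in WT cells, with a log2 change of -0.81 (SE 0.057, adjusted p = 2.83e-11), against -0.15 (SE 0.056, adjusted p = 0.0603) in E79Q cells, and the difference was 0.66 (SE 0.079, adjusted p = 1.14e-06). In irradiated cells the drug effect was -0.19 (SE 0.055, adjusted p = 0.0292) in WT and -0.16 (SE 0.055, adjusted p = 0.0325) in E79Q, and the difference of 0.030 (SE 0.078) did not pass (adjusted p = 0.921). Radiation raised SERPINB2 by 0.85 (SE 0.056) in WT and 1.06 (SE 0.056) in E79Q cells, and under CB-839 by 1.47 (SE 0.057) and 1.05 (SE 0.056). The difference in the radiation effect was 0.21 (SE 0.078, adjusted p = 0.268) without the drug and -0.42 (SE 0.079, adjusted p = 0.00421) with it.

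Of these SERPINB2 calls, the drug effect in irradiated WT cells was lost without library 1, 2 or 3 of irradiated WT cells or without library 1 or 3 of doubly treated WT cells (adjusted p = 0.0602 to 0.126). In irradiated E79Q cells it was lost with upper-quartile factors, with no low-count filter, with only the groups compared, without library 1 or 2 of irradiated E79Q cells or without library 1 or 3 of doubly treated E79Q cells (adjusted p = 0.0616 to 0.125). The drug effect in unirradiated E79Q cells, which did not pass, was called with RLE size factors, with no low-count filter, without the 4 libraries of highest GC trend, with only the groups compared, with DESeq2 or without library 1 of CB-839-treated E79Q cells (adjusted p = 0.0172 to 0.0422). The difference in the radiation effect was called without the drug without the 4 libraries of highest GC trend or with only the groups compared (adjusted p = 0.0159 to 0.0263), and lost with the drug with only the groups compared (adjusted p = 0.0990).

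F3 (ENSG00000117525, chromosome 1 at 94529225 to 94541800, minus strand) encodes tissue factor, and with radiation it moved opposite to the genes above. Its level was 1440.4 ± 23.7 CPM in untreated WT and 1069.7 ± 15.3 in untreated E79Q cells, 1264 ± 38.2 and 1108 ± 13.6 under CB-839, 991 ± 15.4 and 774 ± 0.812 after radiation, and 1031 ± 28.1 and 835 ± 42.3 with both. Every E79Q library was below every WT library of the same treatment, and every irradiated library was below every unirradiated one of the same genotype and drug state. The E79Q log2 fold change of F3 was -0.43 (SE 0.039, adjusted p = 3.04e-09) in untreated cells and -0.19 (SE 0.039, adjusted p = 9.46e-04) under CB-839. Radiation lowered F3, at -0.54 (SE 0.039, adjusted p = 5.56e-11) in WT and -0.47 (SE 0.039, adjusted p = 9.98e-10) in E79Q cells. CB-839 lowered it in WT cells, at -0.19 (SE 0.039, adjusted p = 0.00114), and gave 0.051 (SE 0.039, adjusted p = 0.406) in E79Q cells, with a difference of 0.24 (SE 0.055, adjusted p = 0.00367) that was lost with no low-count filter (adjusted p = 0.0598). In irradiated E79Q cells CB-839 gave 0.11 (SE 0.039, adjusted p = 0.0386), a call lost with no low-count filter, with only the groups compared, without library 1, 2 or 3 of irradiated E79Q cells or without library 1 or 3 of doubly treated E79Q cells (adjusted p = 0.0644 to 0.211).

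F2R (ENSG00000181104, chromosome 5 at 76716043 to 76735781, plus strand), the main thrombin receptor of many cell types, varied least. Its group means ran from 119.7 CPM in CB-839-treated WT to 149 in CB-839-treated E79Q cells. The genotype log2 fold change was 0.19 (SE 0.056, adjusted p = 0.0136) in untreated cells, a call lost without library 3 of untreated WT cells (adjusted p = 0.0938), and 0.32 (SE 0.056, adjusted p = 1.58e-04) under CB-839. In irradiated and doubly treated cells the genotypes overlapped, at 0.11 (SE 0.056, adjusted p = 0.279) and 0.083 (SE 0.056, adjusted p = 0.443). Of the radiation comparisons only that in WT cells under CB-839 was called, at 0.19 (SE 0.056, adjusted p = 0.0154), and it was lost with no low-count filter, without library 1 of CB-839-treated WT cells or without library 3 of doubly treated WT cells (adjusted p = 0.0529 to 0.0640). The comparison in WT cells without the drug, at 0.13 (SE 0.056, adjusted p = 0.120), was called without the 4 libraries of highest GC trend or with only the groups compared (adjusted p = 0.0228 to 0.0384). No CB-839 comparison passed for F2R.

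F2RL1 (ENSG00000164251, chromosome 5 at 76818933 to 76835315, plus strand) encodes PAR2, the receptor of trypsin-like proteases on epithelia. Its level was 167 ± 0.900 CPM in untreated WT and 229 ± 6.84 in untreated E79Q cells, 184 ± 2.92 and 295 ± 1.64 under CB-839, 208 ± 6.24 and 271 ± 2.30 after radiation, and 260.4 ± 1.19 and 316 ± 1.54 with both. All E79Q libraries lay above all WT libraries of the same treatment. The genotype effect was 0.68 (SE 0.040, adjusted p = 8.90e-13) under CB-839 and 0.28 (SE 0.040, adjusted p = 1.91e-05) in doubly treated cells, where it was lost with only the groups compared (adjusted p = 0.0755). CB-839 raised F2RL1 in all 4 settings, by 0.14 (SE 0.041, adjusted p = 0.0194) in WT and 0.36 (SE 0.040, adjusted p = 1.70e-07) in E79Q cells, with a difference of 0.23 (SE 0.057, adjusted p = 0.00751). That difference was lost with no low-count filter (adjusted p = 0.231), and the call in WT cells was lost with upper-quartile factors, with no low-count filter, without library 1 or 3 of untreated WT cells or without library 1 or 2 of CB-839-treated WT cells (adjusted p = 0.0520 to 0.204).

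Radiation raised F2RL1 by 0.32 (SE 0.040) in WT and 0.24 (SE 0.040) in E79Q cells. Under CB-839 it rose by 0.50 (SE 0.040, adjusted p = 4.57e-10) in WT cells, against 0.10 (SE 0.040, adjusted p = 0.0543) in E79Q cells, and the difference was -0.40 (SE 0.057, adjusted p = 1.32e-04). The value in E79Q cells under the drug was called with RLE size factors, with upper-quartile factors, without the 4 libraries of highest GC trend or with DESeq2 (adjusted p = 0.0124 to 0.0406). Per kilobase, F2RL1 exceeded F2R in every group, from 1.85 ± 0.0858 times in untreated WT to 3.02 ± 0.244 times in doubly treated E79Q cells.

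F2RL2 (ENSG00000164220, chromosome 5 at 76615482 to 76623434, minus strand) encodes PAR3, a thrombin-binding receptor known as a cofactor for other receptors of the family, and its upstream stretch is printed above. It had the widest range of the 9 genes, 8.74-fold between its lowest and highest group mean. Its levels were 5.88, 6.30 and 5.39 CPM in untreated WT and 13.9, 12.4 and 11.4 in untreated E79Q libraries. Under CB-839 they were 3.05, 4.46 and 4.11 in WT and 13.4, 13.2 and 11.0 in E79Q. After radiation they were 4.00, 4.37 and 5.50 in WT and 35.0, 32.6 and 34.0 in E79Q, and in doubly treated cells 5.21, 7.24 and 5.74 in WT and 23.2, 18.7 and 22.4 in E79Q. All 12 E79Q libraries were above all 12 WT libraries, and the 3 irradiated E79Q libraries were above all others. Counts ran from 54 to 826 per library, the low end in WT cells.

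The E79Q log2 fold change of F2RL2 was 1.10 (SE 0.14, adjusted p = 1.03e-06) in untreated cells, 1.69 (SE 0.15, adjusted p = 1.96e-09) under CB-839, 2.88 (SE 0.13, adjusted p = 4.56e-15) after radiation and 1.82 (SE 0.13, adjusted p = 1.25e-10) with both. Radiation gave -0.35 (SE 0.16, adjusted p = 0.133) in WT cells, whose libraries overlapped, and 1.43 (SE 0.12, adjusted p = 7.61e-10) in E79Q cells, a 2.69-fold rise. The difference between these effects was 1.78 (SE 0.20, adjusted p = 2.92e-06). Under CB-839 radiation raised F2RL2 in both genotypes, by 0.64 (SE 0.16) in WT and 0.78 (SE 0.12) in E79Q cells, and the difference, 0.13 (SE 0.20), did not pass (adjusted p = 0.887). In irradiated cells CB-839 lowered F2RL2 in E79Q, at -0.66 (SE 0.11, adjusted p = 8.76e-05), and gave 0.40 (SE 0.15, adjusted p = 0.104) in WT, with a difference of -1.06 (SE 0.19, adjusted p = 0.00213).

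In unirradiated WT cells CB-839 lowered F2RL2, at -0.60 (SE 0.16, adjusted p = 0.0122), a call lost without library 2 of untreated WT cells or without library 1 of CB-839-treated WT cells (adjusted p = 0.0551 to 0.0953). In irradiated WT cells the drug effect was called without the 4 libraries of highest GC trend (adjusted p = 0.0242), at 0.50. The difference between genotypes in the drug effect without radiation, 0.59 (SE 0.21, adjusted p = 0.0580), was called with upper-quartile factors, without the 4 libraries of highest GC trend, with only the groups compared, with DESeq2, without library 1 of untreated E79Q cells, without library 2 of CB-839-treated WT cells or without library 3 of CB-839-treated E79Q cells (adjusted p = 0.0136 to 0.0458). Of the summed F2R, F2RL1 and F2RL2 level per kilobase, F2RL2 made up 1.93 ± 0.112 percent in untreated WT and 3.16 ± 0.239 percent in untreated E79Q cells. Its share was 1.28 ± 0.173 percent in irradiated WT, 7.19 ± 0.189 percent in irradiated E79Q and 4.20 ± 0.365 percent in doubly treated E79Q cells. By the deposited gene lengths, F2RL2 therefore stayed the least abundant of the 3 receptors in every group.

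F2RL2, F2R and F2RL1 lie side by side on chromosome 5, with the F2RL2 start 92.6 kb before and the F2RL1 start 103 kb after that of F2R. Their E79Q effects were unequal, at 1.10, 0.19 and 0.46 in untreated cells and 2.88, 0.11 and 0.38 after radiation. F2RL2 lies on the minus strand inside the span of IQGAP2, a plus-strand gene that shares 87 of its exon bases (2.54%). IQGAP2, looked up after its values were seen because of this overlap, was lower in E79Q, at -1.81 (SE 0.29, adjusted p = 3.88e-05) in untreated, -1.45 (SE 0.26, adjusted p = 2.80e-04) in irradiated and -1.54 (SE 0.28, adjusted p = 4.97e-04) in doubly treated cells, and was not called in CB-839-treated cells, at -0.66 (SE 0.31, adjusted p = 0.168). It had 13 to 136 counts per library. Of the other members, PLAU shares 916 exon bases (31.1%) with C10orf55 on the opposite strand, at 8 to 34 counts. SERPINB2 shares 547 (19.9%) with SERPINB10 on the same strand, at 0 to 8 counts. F2R shares 39 with an antisense gene at 1 to 17 counts. Whether the counting used strand is not given in the sources used here, so reads over exons shared with opposite-strand genes are uncertain. Strand cannot separate SERPINB2 from SERPINB10, so reads over their shared exons are uncertain with either setting.

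**Figure D2:**
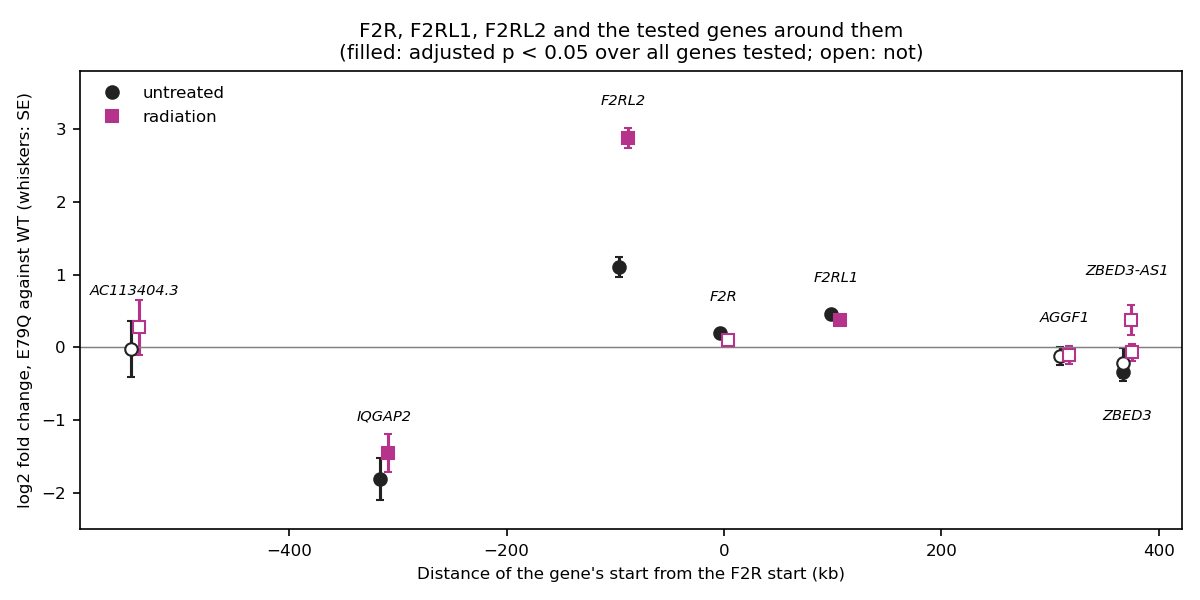
E79Q against WT log2 fold change (vertical axis, whiskers SE) of the 3 receptor genes and the tested genes around them, by distance of each gene's start from the F2R start in kb; circles are untreated and squares irradiated cells, filled where adjusted p was under 0.05. F2RL2 stands at 1.10 untreated and 2.88 after radiation, IQGAP2 at -1.81 and -1.45.

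Across the members, the comparison of genotypes asked how E79Q cells differed from WT cells at a given treatment. In untreated cells E79Q was higher for 7 members (all but PLAT and F3) and lower for F3, with PLAT not called. Of all genes tested, 9.62% were higher and 10.1% lower in that comparison. The largest rises were SERPINE2, F2RL2 and PLAU, by 2.58-fold, 2.15-fold and 1.98-fold. Under CB-839 7 members were higher and 2, PLAT and F3, lower, against 8.30% and 6.72% of all genes. In irradiated cells 6 were higher and the same 2 lower, against 4.69% and 4.95%, with F2R not called, and in doubly treated cells 6 were higher and 2 lower, against 4.40% and 2.86%, again without F2R. The groups did not overlap for 8, 9, 8 and 8 members in that order, where 37.1%, 32.5%, 32.4% and 18.3% of all genes did not. The members' median log2 fold change was 0.46, 0.81, 0.48 and 0.45, beside medians over all genes of -0.0068, 0.0097, 0.0058 and -0.0030.

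**Figure D3:**
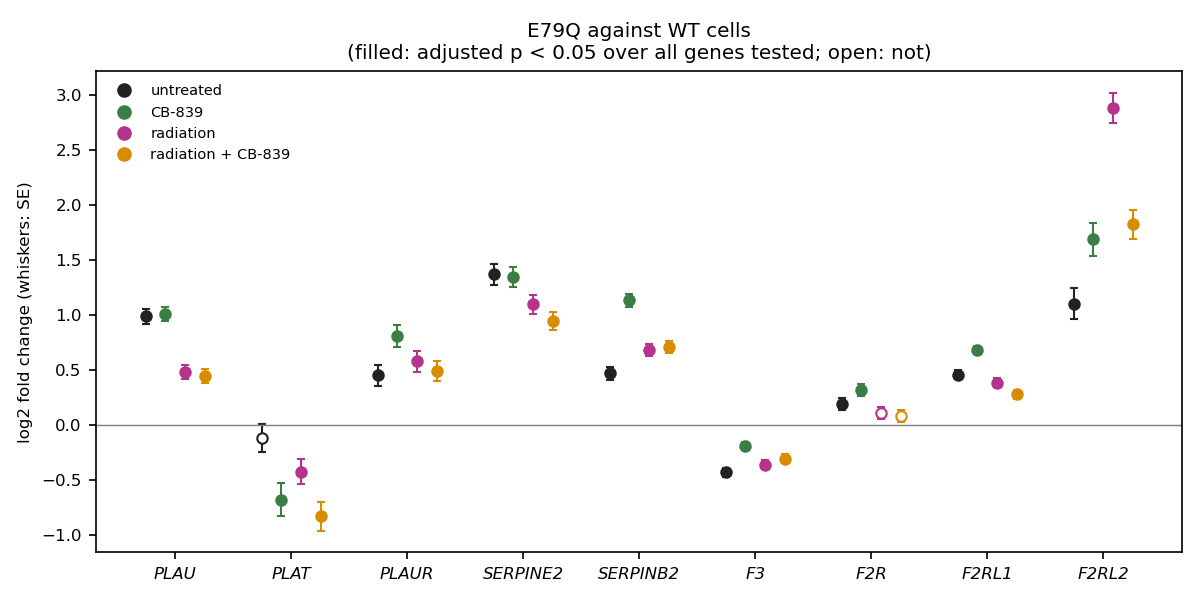
Log2 fold change of E79Q against WT cells for the 9 genes, 1 color per treatment; whiskers are SE, filled points have an adjusted p under 0.05 over all genes tested, open points do not. PLAU, PLAUR, SERPINE2, SERPINB2, F2RL1 and F2RL2 lie above 0 and F3 below 0 in all 4 treatments, and the irradiated F2RL2 point at 2.88 is the highest.

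The radiation comparisons asked what had changed 24 hours after 4 Gy. In WT cells 6 members rose and F3 fell, against 9.41% and 8.49% of all genes rising and falling, and F2R and F2RL2 were not called. In E79Q cells 7 rose and F3 fell, against 12.2% and 10.1%, and F2R was not called. Under CB-839 8 rose and F3 fell in WT cells, against 13.2% and 10.4%, and 6 rose and F3 fell in E79Q cells, against 15.3% and 13.9%, where F2R and F2RL1 were not called. PLAU had the largest rise in WT cells without the drug, 2.63-fold, and SERPINB2 with it, 2.77-fold. In E79Q cells without the drug it was F2RL2, 2.69-fold. Median log2 fold changes of the members were 0.45 and 0.70 without the drug and 0.77 and 0.60 with it, beside 0.0040, 0.020, -0.0026 and -0.0042 over all genes. The comparisons without and with the drug use different libraries, while each radiation comparison shares libraries with the genotype and drug comparisons.

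**Figure D4:**
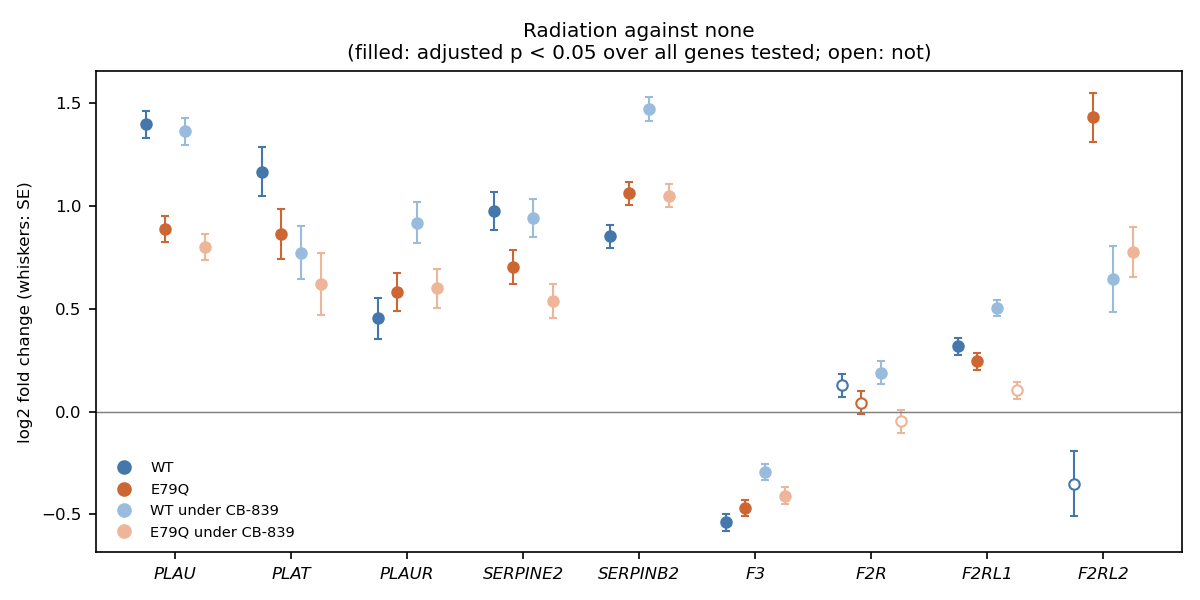
Log2 fold change of irradiated against unirradiated cells for the 9 genes in WT and E79Q cells, without and with CB-839; whiskers are SE, filled points have an adjusted p under 0.05 and open points do not. F3 lies below 0 in all 4 settings, and the F2RL2 points run from -0.35 in WT to 1.43 in E79Q cells.

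The drug comparisons asked what glutaminase inhibition changed, and here the members went in different directions. In WT cells 2 members rose (PLAU and F2RL1) and 5 fell (PLAT, PLAUR, SERPINB2, F3 and F2RL2), against 6.35% and 8.44% of all genes rising and falling. In E79Q cells the same 2 rose and PLAT fell, against 9.44% and 10.4%. In irradiated WT cells PLAU and F2RL1 rose and PLAT and SERPINB2 fell, against 4.99% and 4.53%. In irradiated E79Q cells PLAU, F2RL1 and F3 rose and PLAT, SERPINB2 and F2RL2 fell, against 12.9% and 13.1%. PLAT had the largest fall of the members in E79Q cells, with log2 fold changes of -1.10 without radiation and -1.34 with it. Members' medians were -0.19, 0.051, 0.077 and -0.0098, beside -0.0070, 0.021, -0.016 and -0.017 over all genes. The number of members called moved with single libraries. It fell from 7 to 4 in WT cells without library 1 or 2 of CB-839-treated WT cells, and from 4 to 2 in irradiated WT cells without library 1 or 3 of irradiated WT or library 1 or 3 of doubly treated WT cells. In irradiated E79Q cells it fell from 6 to 3 without library 1 or 2 of irradiated E79Q cells or with only the groups compared.

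**Figure D5:**
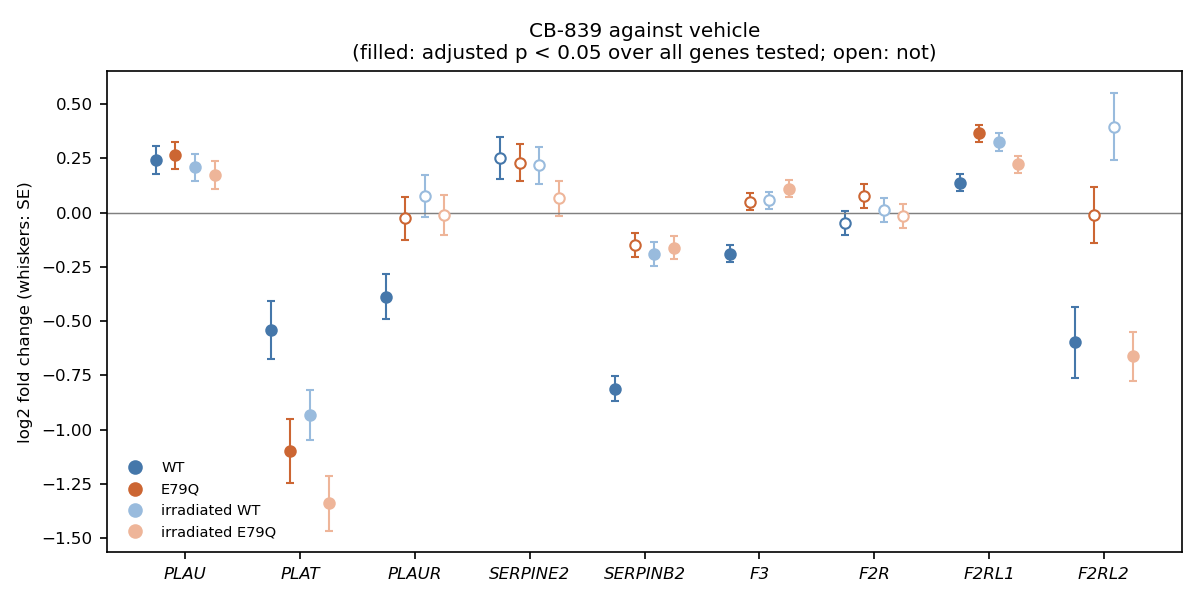
Log2 fold change of CB-839 against no drug for the 9 genes in unirradiated and irradiated cells of each genotype; whiskers are SE, filled points have an adjusted p under 0.05 and open points do not. PLAT lies below 0 and filled in all 4 settings, from -0.54 to -1.34, while PLAU and F2RL1 lie above 0 and filled in all 4.

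Whether a treatment acted differently in the genotypes was tested as the difference of log2 effects, E79Q minus WT, which compares factors and not added CPM. For radiation without the drug 2 members passed, PLAU and F2RL2, against 1.26% of all genes, and under CB-839 3 passed, PLAU, SERPINB2 and F2RL1, against 1.08%. For CB-839 without radiation 3 passed, SERPINB2, F3 and F2RL1, all with a more positive effect in E79Q cells, against 14.3%. In irradiated cells 1 passed, F2RL2, against 1.91%. The difference in the radiation effect on F2RL2, 1.78, was the largest of these 9 values, and that on PLAU was -0.51 without and -0.56 with the drug.

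The other genes of the pathway were taken from a list of 73, of which 50 could be tested. In untreated cells 12 were higher and 15 lower in E79Q, under CB-839 17 and 5, after radiation 11 and 11, and with both 10 and 3. Their median log2 fold changes were -0.017, 0.13, 0.10 and 0.10, to be read beside the percentages and medians over all genes given above. Among proteases that cut the receptors, MMP1, a collagenase that also cleaves PAR1, averaged 198 ± 11.2 CPM in untreated WT and 761 ± 58.2 in untreated E79Q cells, a log2 change of 1.94 (SE 0.055, adjusted p = 7.93e-20). KLK5, a trypsin-like kallikrein of squamous epithelia that cleaves PAR2, was lower in E79Q, at -1.06 (SE 0.075, adjusted p = 2.81e-11) in untreated cells and -0.87 (SE 0.075, adjusted p = 1.91e-09) after radiation. The broad protease inhibitor A2M was lower in E79Q without the drug, at -1.35 (SE 0.10, adjusted p = 1.14e-10) in untreated and -0.83 (SE 0.093, adjusted p = 2.42e-07) in irradiated cells. With the drug it was higher in E79Q, at 0.50 (SE 0.11, adjusted p = 0.00177) under CB-839 alone and 0.41 (SE 0.091, adjusted p = 0.00440) in doubly treated cells. The difference between genotypes in the CB-839 effect on A2M was 1.85 (SE 0.15, adjusted p = 1.09e-09) without radiation and 1.23 (SE 0.13, adjusted p = 3.05e-06) with it. FN1, the fibronectin that plasmin can cut, was lower in irradiated and doubly treated E79Q cells, at -0.51 (SE 0.053) and -0.34 (SE 0.052). Under CB-839 the difference between genotypes in its radiation effect was -0.41 (SE 0.074, adjusted p = 0.00289). Its genotype values in untreated and CB-839-treated cells are not reported here, so the lower level is not shown to be limited to irradiated cells.

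With radiation 20 of these genes rose and 7 fell in WT, 25 and 5 in E79Q, 22 and 3 in WT under CB-839, and 24 and 5 in E79Q cells under CB-839. Of all genes tested, the shares that rose and fell were 9.41% and 8.49%, 12.2% and 10.1%, 13.2% and 10.4%, and 15.3% and 13.9% in that order. The listed genes' median log2 fold changes were 0.19, 0.30, 0.27 and 0.28, beside 0.0040, 0.020, -0.0026 and -0.0042 over all genes. MMP1 rose by 1.74 (SE 0.054, adjusted p = 1.81e-18) in WT, and by a smaller factor in E79Q cells, with a difference of -0.79 (SE 0.075, adjusted p = 3.35e-07), the same sign as for PLAU. LAMB3, a laminin chain of the epithelial basement membrane, rose under CB-839 by 1.19 (SE 0.048) in WT and 0.86 (SE 0.047) in E79Q cells. ITGA3, an integrin subunit that binds laminin and associates with PLAUR, fell without the drug, at -0.53 (SE 0.050) in WT and -0.38 (SE 0.050) in E79Q cells. Under CB-839 its fall in WT cells was smaller, at -0.18 (SE 0.049, adjusted p = 0.00835).

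With CB-839 8 rose and 12 fell in WT, 15 and 7 in E79Q, 7 and 8 in irradiated WT, and 16 and 11 in irradiated E79Q cells. Over all genes tested, 6.35% and 8.44%, 9.44% and 10.4%, 4.99% and 4.53%, and 12.9% and 13.1% rose and fell in these comparisons. Medians of the listed genes were -0.00030, 0.034, -0.042 and 0.10, beside -0.0070, 0.021, -0.016 and -0.017 over all genes. FN1 rose by 0.66 (SE 0.053) in WT and 1.06 (SE 0.053) in E79Q cells. VEGFA, the endothelial growth factor, fell in WT cells, at -0.98 (SE 0.059, adjusted p = 1.91e-12), and the difference between genotypes was 1.09 (SE 0.084, adjusted p = 3.31e-10). MMP1 fell in E79Q cells, at -0.53 (SE 0.053, adjusted p = 2.71e-08), and the difference between genotypes was -0.80 (SE 0.075, adjusted p = 1.91e-08), so this fall was not shared by unirradiated WT cells. In irradiated cells MMP1 fell in both genotypes, at -0.52 (SE 0.053) in WT and -0.91 (SE 0.053) in E79Q. THBD, the thrombin-binding thrombomodulin, differed between genotypes in its radiation effect, by 0.85 (SE 0.12, adjusted p = 1.85e-04), the same sign as F2RL2.

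For the 3 members of widest range, the genes of most similar pattern were sought by Pearson's r of log2 CPM over the 24 libraries, among 10948 other genes. These values describe libraries that share 8 groups, and no p is given. F2RL2 was closest to TRIM16L (r = 0.950), CYP4F11 (0.948) and AKR1C3 (0.947), the last an aldo-keto reductase. PLAT was closest to SAT1 (0.922), which acetylates polyamines, GLUD1 (0.902), glutamate dehydrogenase, and FHOD3 (0.895), an actin-organizing formin. SERPINB2 was closest to PLAUR (0.964), and SLC12A7 (0.949), a potassium-chloride cotransporter, was also among its closest genes.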

How the data were processed

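RNA of 24 libraries was measured as read counts per gene. The authors deposited whole-number counts for 58735 gene IDs with a gene length column; the submitters' processing notes name STAR, HTSeq and GRCh38, and versions, annotation and strand setting are not stated there. Gene starts and ends equal those of GENCODE 29 for 58724 IDs. Deposited gene length, taken as base pairs, was used for values per kilobase.

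Groups follow the labels. Genes passing edgeR's filterByExpr (15956) were fitted with edgeR 4.0.16 (R 4.3.3): TMM factors, 1 mean per group over all 24 libraries (16 residual degrees of freedom, common biological coefficient of variation 7.19%), quasi-likelihood F-tests for 16 comparisons, and Benjamini-Hochberg adjustment over all genes tested, with a call at adjusted p under 0.05. SE is the log2 fold change divided by the root of F. An exact permutation test of 3 against 3 could not go below p = 0.1 and was not used. Levels are TMM-scaled CPM.

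Alternatives were DESeq2 1.42.0, RLE and upper-quartile factors, no low-count filter, a replicate block, only the groups compared, leaving out each library, and leaving out the 4 libraries whose deviation from their group correlated most positively with gene GC content (r = 0.166 to 0.479): library 2 of doubly treated E79Q, 1 of doubly treated WT, 1 of untreated E79Q and 3 of CB-839-treated WT cells. GC content was known for 99.97% of genes.

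The members and the lists of other pathway genes and cell type markers were chosen with earlier results of these data known. Named are all 9 members, in each comparison the 2 listed genes of smallest p in each direction among those called, PLG, F2RL3 and MMP1, and the 3 genes most correlated with each of the 3 members of widest range; some genes that this rule names are not reported here.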

Additional observations from a re-analysis of the deposited data

Results flagged for a closer look

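The members below differed between WT and E79Q cells in their response to a treatment, by the test of the difference itself (E79Q effect minus WT effect, log2, edgeR's quasi-likelihood test). For radiation without the drug these were PLAU, at -0.51 (SE 0.090, adjusted p = 0.00221), and F2RL2, at 1.78 (SE 0.20, adjusted p = 2.92e-06). For radiation under CB-839 they were PLAU, at -0.56 (SE 0.090, adjusted p = 6.99e-04), SERPINB2, at -0.42 (SE 0.079, adjusted p = 0.00421), and F2RL1, at -0.40 (SE 0.057, adjusted p = 1.32e-04).

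For CB-839 without radiation the members that differed were SERPINB2, at 0.66 (SE 0.079, adjusted p = 1.14e-06), F3, at 0.24 (SE 0.055, adjusted p = 0.00367), and F2RL1, at 0.23 (SE 0.057, adjusted p = 0.00751). For CB-839 in irradiated cells it was F2RL2, at -1.06 (SE 0.19, adjusted p = 0.00213).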

How the results depend on the processing

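Over 7 alternatives, each applied to 144 member values (9 genes in 16 comparisons), and over 1080 values with 1 library left out, no called member value changed sign. Calls lost and gained were 0 and 3 with RLE size factors, 3 and 2 with upper-quartile factors, 6 and 1 with no low-count filter, 0 and 7 without the 4 libraries of highest GC trend, 6 and 5 with only the groups compared, 0 and 4 with DESeq2, and 41 and 8 with 1 library left out. CPM from unscaled totals moved 7 of 72 group means by over 1 SD. Members called for CB-839 in WT cells numbered 7, and 4 to 6 with 1 library left out. For CB-839 in E79Q cells they numbered 3, with 5 when only the groups compared were fitted and 3 to 4 with 1 library left out. In irradiated WT cells they numbered 4, and 2 to 3 with 1 library left out. In irradiated E79Q cells they numbered 6, with 3 when only the groups compared were fitted and 3 to 5 with 1 library left out. For the difference in CB-839 effect they numbered 3, with 1 without the filter, 5 without the 4 libraries, 5 with DESeq2 and 3 to 5 with 1 library left out. The cause of these shifts was not tested.

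Replicate numbers showed no pairing in the libraries' deviations from their group means. Same-numbered libraries of different groups had correlations of -0.175 to 0.0871 between these deviations, and 4 of 24 libraries correlated best with their own number. Some deviations carry GC trends, so this cannot settle whether same-numbered libraries shared a culture or day, which the labels do not say. With the number as a replicate block, CB-839 calls were lost for PLAU in irradiated WT cells (0.21, adjusted p = 0.0532) and for PLAU (0.17, adjusted p = 0.0569) and F3 (0.11, adjusted p = 0.0547) in irradiated E79Q cells.

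Counts over all genes moved by more than 1.5 times with only the groups compared: from 1538 to 3025 for genotype after radiation, 1159 to 225 for genotype with both treatments, 2855 to 4354 for radiation in WT, 4667 to 1621 for radiation in E79Q under CB-839, 4141 to 1566 for CB-839 in irradiated E79Q, 201 to 620 for the difference in radiation effect, 172 to 41 for that difference under CB-839, and 305 to 131 for the difference in CB-839 effect in irradiated cells. Without the 4 libraries the counts were 2595 for genotype after radiation, 4287 for radiation in WT, 539 for the difference in radiation effect and 726 for the difference in CB-839 effect in irradiated cells. With 1 library left out the lowest counts were 755 for genotype with both treatments, without library 3 of doubly treated WT cells, 3108 for radiation in E79Q under CB-839, without library 2 of doubly treated E79Q cells, 660 for CB-839 in irradiated WT, without library 1 of doubly treated WT cells, and 123 and 92 for the differences in radiation effect, without library 2 of irradiated and of CB-839-treated E79Q cells. The difference in CB-839 effect in irradiated cells ran from 152, without library 1 of irradiated E79Q cells, to 569, without library 1 of doubly treated E79Q cells. PLAT and F2RL2, with as few as 58 and 54 counts in a library, are the members whose small effects depth limits most.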

Other observations

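Across the 24 libraries the members did not form 1 block. Pearson's r of log2 CPM, which the 8 shared groups dominate and which carries no p here, was 0.964 for SERPINB2 with PLAUR, 0.930 for SERPINE2 with F2RL1 and 0.909 for PLAU with SERPINE2. F3, the tissue factor gene, ran against them, at -0.935 with PLAU and -0.899 with SERPINE2. PLAT, the second activator, was at 0.203 with PLAU.

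Besides PLG and F2RL3, the listed genes KLKB1 (plasma prekallikrein), F9 (coagulation factor IX) and KLK4 (a kallikrein), named here because they were few, had 0 counts in all 24 libraries, which allows up to 3 counts in each.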
